A study of Mus musculus with 2 samples.

Results

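The genes described here encode the machinery of oxidative phosphorylation in mononuclear phagocytes of a mouse tumor. They were chosen by name, as the rows whose symbol starts with Nduf, Uqcr, Cox4, Cox5, Cox6, Cox7, Cox8, Atp5, Sdh, mt-Nd, mt-Co, mt-Cytb or mt-Atp, and were kept where unique molecular identifiers (UMIs, the tags that count RNA molecules) were seen in at least 3 cells. Of 27998 genes in the files, 109 carried such a symbol and 106 had enough cells. Cox7b2, Cox8b and Cox8c did not. The 106 were 78 nuclear-encoded subunits, 13 subunits encoded by mitochondrial DNA, 14 assembly factors or accessory proteins and 1 testis isoform, Cox6b2. Ndufa4 and Ndufa4l2, although named for complex I, were placed with complex IV, where Ndufa4 is found as a subunit.

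The cells were tumor mononuclear phagocytes (TMPs), sorted as MerTk+ CD64+ from B16 melanoma tumors in C57Bl/6 mice. B16 is a transplantable mouse melanoma line. There was 1 droplet-based single-cell library from Fcmr+/+ mice and 1 from Fcmr-/- mice, which lack the putative receptor for soluble IgM, and the age of the mice and the number pooled in a library were not given in the sources used here. With 1 library for each genotype, no test between genotypes was possible, no difference has a replicate check, and library and genotype cannot be told apart.

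After the limits on cells, 6352 Fcmr+/+ and 7999 Fcmr-/- cells remained, with 128408544 and 124630621 UMIs and medians of 17973.5 and 12911 UMIs per cell. The libraries shared 73 cell barcodes. Macrophage markers, 8 of 8 of which were present, summed to 12377 and 12384 CPM (UMIs of a gene or list per 1000000 UMIs) in the Fcmr+/+ and Fcmr-/- cells. The sort's own markers, Mertk and Fcgr1 (CD64), were at 62.8 and 48.7 CPM and at 250.4 and 394.3 CPM. Markers of T and NK cells summed to 0.942 and 15.4 CPM and melanoma markers to 40.6 and 64.1 CPM. Fcmr itself had 7 UMIs in the Fcmr+/+ cells and 6 in the Fcmr-/- cells, so its RNA does not check the genotype labels at this depth. All levels below are CPM of the UMIs summed over cells, with exact Poisson intervals at 95% that cover counting error only, and ratios are log2 of CPM with 1 added. Each UMI stands for 1 molecule tagged near its 3′ end, so levels were not divided by length.

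Oxidative phosphorylation passes electrons from NADH and succinate along complexes of the inner mitochondrial membrane to oxygen, and uses the proton gradient this builds to make ATP. Complex I oxidises NADH, complex II oxidises succinate, complex III passes electrons to cytochrome c, complex IV reduces oxygen and complex V is the ATP synthase. Most subunits are encoded in the nucleus and imported, while core subunits of complexes I, III, IV and V are encoded by mitochondrial DNA and complex II is nuclear throughout. Inflammatory activation of macrophages is known to move metabolism from respiration toward glycolysis.

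Nuclear genes of this pathway are known to be bound by NRF1, by the ETS factor GABP, by YY1 and by the estrogen-related receptors (ERR). RefSeq's promoter table for GRCm38.p6, which gives 250 bases before and 50 after each start, held 78 of the 93 nuclear members. The letters GCGCATGCG (NRF1), read on both strands, were in the promoters of 10 of the 78 (12.8%), against 1.95% of 27025 genes in the table. AAGATGGCG (YY1) was in 8 (10.3%, against 1.64% of all), CCGGAAGT (ETS) in 5 (6.41%, against 4.31%) and TCAAGGTCA (ERR) in 2 (2.56%, against 0.466%). Base composition was not matched. A match is a description of the letters in this window and not of binding. Below are the promoters of Atp5k and Ndufa3, the nuclear subunits with the largest ratios between the libraries, and for each motif that of the most abundant further subunit that holds it. Capitals mark the motif on either strand.
Atp5k, chr5:108434350-108434649, minus strand: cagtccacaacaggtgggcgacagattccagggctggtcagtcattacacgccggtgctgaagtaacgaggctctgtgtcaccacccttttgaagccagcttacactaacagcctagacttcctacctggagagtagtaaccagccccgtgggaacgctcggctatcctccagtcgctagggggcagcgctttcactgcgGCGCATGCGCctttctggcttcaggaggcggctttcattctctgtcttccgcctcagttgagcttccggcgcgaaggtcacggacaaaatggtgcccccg
Ndufa3, chr7:3617123-3617422, plus strand: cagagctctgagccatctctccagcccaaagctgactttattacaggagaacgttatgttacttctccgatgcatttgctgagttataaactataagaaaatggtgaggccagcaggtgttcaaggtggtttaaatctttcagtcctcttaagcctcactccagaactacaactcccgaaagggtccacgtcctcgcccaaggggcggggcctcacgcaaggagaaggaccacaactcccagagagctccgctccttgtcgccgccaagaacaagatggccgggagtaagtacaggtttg
Atp5l, chr9:44920693-44920992, minus strand: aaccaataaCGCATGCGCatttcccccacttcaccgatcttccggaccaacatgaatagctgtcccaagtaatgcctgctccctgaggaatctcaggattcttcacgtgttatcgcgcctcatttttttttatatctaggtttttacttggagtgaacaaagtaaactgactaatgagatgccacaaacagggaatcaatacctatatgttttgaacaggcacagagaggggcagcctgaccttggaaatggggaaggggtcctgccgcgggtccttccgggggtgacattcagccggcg
Cox8a, chr19:7217567-7217866, minus strand: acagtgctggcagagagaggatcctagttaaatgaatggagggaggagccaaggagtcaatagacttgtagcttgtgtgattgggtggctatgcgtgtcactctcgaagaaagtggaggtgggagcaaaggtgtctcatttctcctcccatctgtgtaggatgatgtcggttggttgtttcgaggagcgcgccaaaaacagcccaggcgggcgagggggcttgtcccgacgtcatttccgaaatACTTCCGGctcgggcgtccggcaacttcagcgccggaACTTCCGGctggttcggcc
Atp5j2, chr5:145191492-145191791, minus strand: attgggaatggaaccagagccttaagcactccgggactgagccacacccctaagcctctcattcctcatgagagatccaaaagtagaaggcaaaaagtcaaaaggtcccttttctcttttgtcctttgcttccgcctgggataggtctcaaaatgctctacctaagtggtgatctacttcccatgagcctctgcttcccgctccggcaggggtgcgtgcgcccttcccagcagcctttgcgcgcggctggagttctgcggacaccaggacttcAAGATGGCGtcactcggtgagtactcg
Atp5g3, chr2:73911277-73911576, minus strand: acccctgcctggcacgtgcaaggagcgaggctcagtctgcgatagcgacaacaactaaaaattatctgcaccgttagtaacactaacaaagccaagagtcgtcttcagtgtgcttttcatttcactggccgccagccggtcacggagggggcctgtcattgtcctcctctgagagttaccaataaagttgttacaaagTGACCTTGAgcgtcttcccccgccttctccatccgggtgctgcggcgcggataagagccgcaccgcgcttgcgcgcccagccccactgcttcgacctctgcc
In Atp5k the NRF1 letters are present on both strands and overlap in 10 bases, in Atp5l they are present once, Cox8a holds the ETS letters at 2 places, Atp5j2 holds those of YY1, Atp5g3 those of ERR, and Ndufa3 holds none of the 4.

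The nuclear-encoded subunits were at the same summed level in both libraries to within a few percent. Their 78 genes summed to 22217 CPM (95% interval 22191 to 22242) in Fcmr+/+ cells and 22715 CPM (22688 to 22741) in Fcmr-/- cells, a log2 ratio of 0.03. By complex, the sums were 6440 and 6623 CPM for the 36 subunits of complex I, 528.9 and 516.3 CPM for the 4 of complex II, and 2254 and 2248 CPM for the 8 listed of complex III. Cyc1 of complex III does not carry a listed prefix and was counted with the electron carriers and their partners. The 15 genes of complex IV summed to 6492 and 6621 CPM and the 15 of complex V to 6502 and 6706 CPM. The log2 ratios of these 5 sums lay between -0.03 and 0.04. Complex II was thus the least abundant in RNA by the number of molecules, with 4 genes whose median level was 125.6 CPM in Fcmr+/+ cells, against 169.4 for complex I, 323.2 for complex III, 514.4 for the 13 of complex IV with at least 5 CPM and 402.5 for complex V.

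Gene by gene, 58 of the 76 nuclear subunits with at least 5 CPM in either library had a log2 ratio within 0.1 of 0, and 51 of 78 were above 0 and 27 below. The subunit with the highest level of each complex in Fcmr+/+ cells was Cox4i1, a complex IV subunit of most tissues whose gene overlaps Gm20388 on the same strand (1012 and 929.2 CPM in Fcmr+/+ and Fcmr-/- cells), followed by Atp5l, subunit g of the ATP synthase (743.2 and 731.5 CPM), Uqcrb of complex III (460.4 and 457.4 CPM), Ndufa2 of complex I (411.6 and 422.2 CPM) and Sdhb, the iron-sulfur subunit of complex II (169.5 and 171.9 CPM). The 7 nuclear-encoded core subunits of complex I, which carry its flavin and iron-sulfur centers and bind quinone, were lower than its accessory subunits, with medians of 104.3 and 178.5 CPM in Fcmr+/+ cells. They had a median log2 ratio of -0.01 between the libraries, and the 29 accessory subunits 0.06.

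Within a complex, the subunits with the lowest and highest ratio lay close together, apart from the few genes named further on. In complex I the lowest was Ndufv2, a core subunit with an iron-sulfur center, at 138.6 and 123.9 CPM (log2 ratio -0.16). In complex II, Sdhd, a membrane anchor, was at 108.1 and 98.8 CPM (-0.13) and Sdha, the flavin subunit, at 110.4 and 112.9 CPM (0.03). In complex III, Uqcrfs1, the Rieske iron-sulfur protein, was at 123.0 and 118.2 CPM (-0.06) and Uqcrh, the hinge protein, at 348.6 and 360.1 CPM (0.05). The lowest of complex V was Atp5g2, a gene for subunit c, at 496.2 and 472.3 CPM (-0.07).

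**Figure D1:**
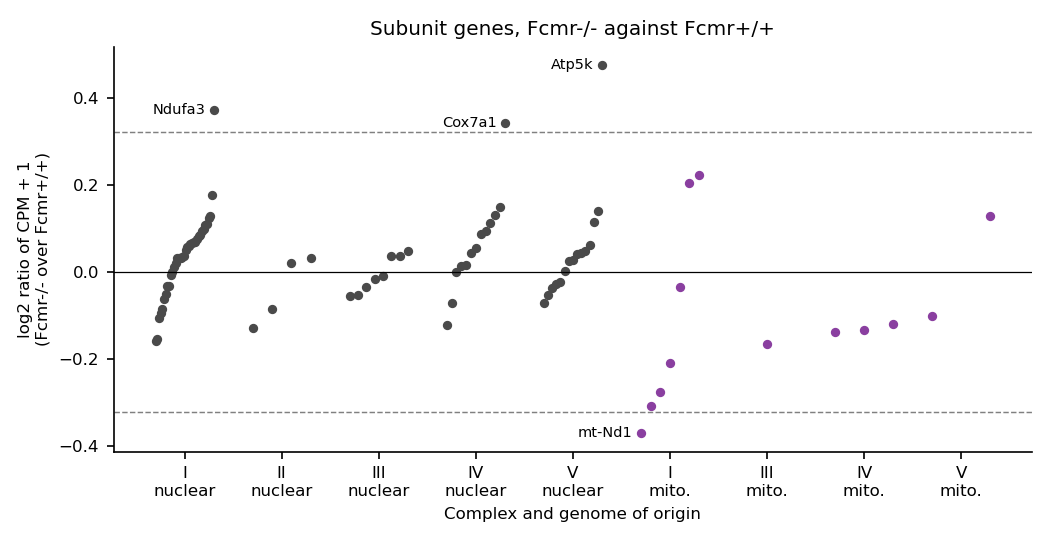
Each point is a subunit gene with at least 5 CPM in either library, and the vertical axis is the log2 ratio of CPM + 1, Fcmr-/- over Fcmr+/+ (1 library each), by complex and by genome of origin. Dashed lines mark ratios 25% above and 20% below 1. Nuclear subunits lie near 0 apart from Atp5k, Ndufa3 and Cox7a1, while 10 of 13 mitochondrially encoded genes lie below 0.

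Few members differed much. A gene is called higher below where its CPM, with 1 added, was at least 25% above that of the other group, and called lower at the same fold in the other direction, at least 20% below. Called higher in the Fcmr-/- library were 3 of 102 members with 5 CPM or more (2.94%), while 6.15% of all 8701 such genes were, and called lower were 2 of 102, while 6.99% of all were. Here and below, the shares of all genes were not matched to the listed genes in level. The 3 higher genes were Atp5k, Ndufa3 and Cox7a1, and the 2 lower were mt-Nd1 and Sdhaf1. The calls of Cox7a1 and mt-Nd1 were near the limit: with 5 CPM added Cox7a1 was at a log2 ratio of 0.28 and with clusters weighted equally mt-Nd1 was at -0.31, where the limit is 0.32 on either side of 0.

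Atp5k (chr5:108433244-108434448, minus strand, GRCm38) encodes subunit e of the ATP synthase, which lies where the enzyme's monomers meet. It was at 268.9 CPM (266.1 to 271.8) in Fcmr+/+ cells and 374.0 CPM (370.6 to 377.4) in Fcmr-/- cells, a log2 ratio of 0.47. The ratio was above 0 within each of the 11 cell states described below, from 0.37 to 0.63. Ndufa3 (chr7:3617373-3620327, plus strand), an accessory subunit of complex I, was at 150.8 and 195.5 CPM, a log2 ratio of 0.37, and was higher in all 11 states, by 0.18 to 0.53. Of the other subunits that sit in the membrane part of the ATP synthase, Atp5l had a log2 ratio of -0.02 and Atp5j2 of 0.14. Atp5k thus lay apart from its neighbours in the enzyme.

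Cox7a1 (chr7:30184144-30186078, plus strand), the heart and muscle isoform of complex IV subunit 7a, was at 16.4 and 21.1 CPM, with a log2 ratio of 0.34, above 0 in 10 of 11 states. The exception was state 9, at -0.35, which held 47 Fcmr+/+ cells. Sdhaf1 (chr7:30321406-30323895, minus strand), an assembly factor of complex II, was at 24.7 and 18.3 CPM, with a log2 ratio of -0.41, and was below 0 in all 11 states, from -0.86 to -0.04. The other members of the 14 assembly factors and accessory proteins that passed 20 CPM lay between -0.17 (Cox7a2l, which helps respiratory complexes join) and 0.23 (Ndufaf3, of complex I).

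A direction shared by all 11 states was seen for further genes with small ratios. Higher in the Fcmr-/- library in every state were 12 of 102 members (11.8%, against 5.40% of all genes), and lower in every state were 3 (2.94%, against 3.32%). All genes were not matched to the members in level, and states 3 and 9 held 65 and 47 Fcmr+/+ cells. Besides Atp5k and Ndufa3, the 12 were Atp5j2, Cox7a2, Cox7c, Ndufa13, Ndufab1, Ndufaf2, Ndufaf3, Ndufb3, Ndufc1 and Uqcr11, with library-wide log2 ratios from 0.04 to 0.23. The 3 lower were mt-Nd1, Sdhaf1 and Cox4i1, the last with a log2 ratio of -0.12. States of 1 library share its preparation, so they are not replicates.

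**Figure D2:**
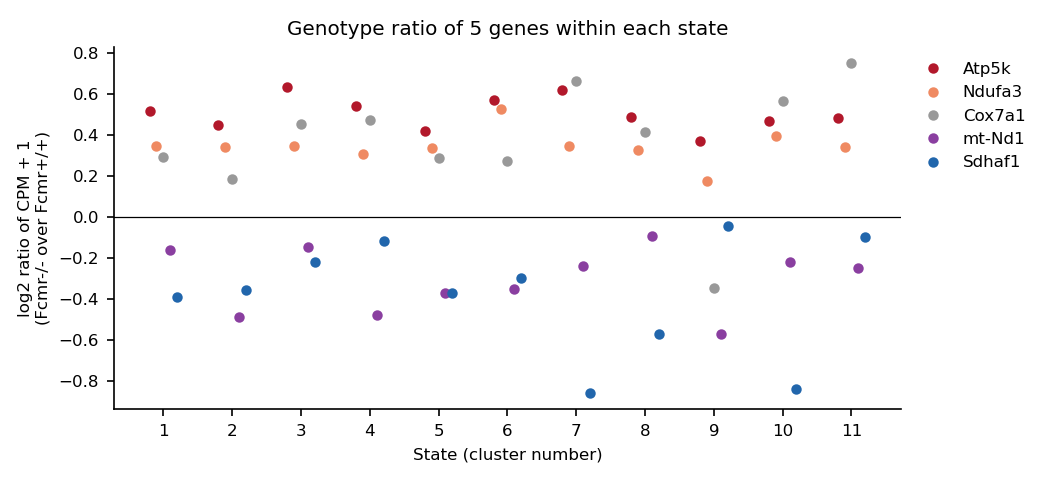
The log2 ratio of CPM + 1, Fcmr-/- over Fcmr+/+, within each of the 11 states, for the 5 members called higher or lower between the libraries. Atp5k and Ndufa3 lie above 0 and mt-Nd1 and Sdhaf1 below 0 in every state, and Cox7a1 falls below 0 in state 9.

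The mitochondrially encoded subunits were lower in the Fcmr-/- library. Their 13 genes summed to 50339 CPM (50300 to 50378) in Fcmr+/+ cells and 45315 CPM (45278 to 45352) in Fcmr-/- cells, a log2 ratio of -0.15, so that there were 2.27 and 1.99 mitochondrial UMIs for each UMI of a nuclear subunit. The difference was largest for complex I (8933 and 7394 CPM, log2 ratio -0.27) and smaller for mt-Cytb of complex III (3855 and 3437 CPM, -0.17), for the 3 core subunits of complex IV (28012 and 25583 CPM, -0.13) and for complex V (9539 and 8901 CPM, -0.10).

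Within complex I, mt-Nd1 was at 2726 and 2107 CPM (log2 ratio -0.37, and below 0 in all 11 states, from -0.57 to -0.09), mt-Nd2 at 1995 and 1610 (-0.31), mt-Nd3 at 1067 and 880.6 (-0.28) and mt-Nd4 at 2699 and 2334 (-0.21). Each of these was lower in the Fcmr-/- library. The remaining mt-Nd genes were mt-Nd5 at 302.4 and 295.3 CPM (-0.03), mt-Nd4l at 125.3 and 146.4 (0.22), and mt-Nd6, which lies on the other strand, at 18.3 and 21.2 (0.20). All 7 mt-Nd genes encode membrane-arm core subunits. In complex IV the levels were 9227 and 8493 CPM for mt-Co1, 8303 and 7544 for mt-Co2 and 10482 and 9546 for mt-Co3. In complex V they were 9496 and 8853 CPM for mt-Atp6 and 43.4 and 47.6 for mt-Atp8. The 3 genes with a ratio above 0, mt-Nd4l, mt-Nd6 and mt-Atp8, were the 3 lowest in level. mt-Nd4l overlaps mt-Nd4 on the same strand, and mt-Atp8 and mt-Co3 each overlap mt-Atp6, so their counts are uncertain where reads could be given to either gene.

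**Figure D3:**
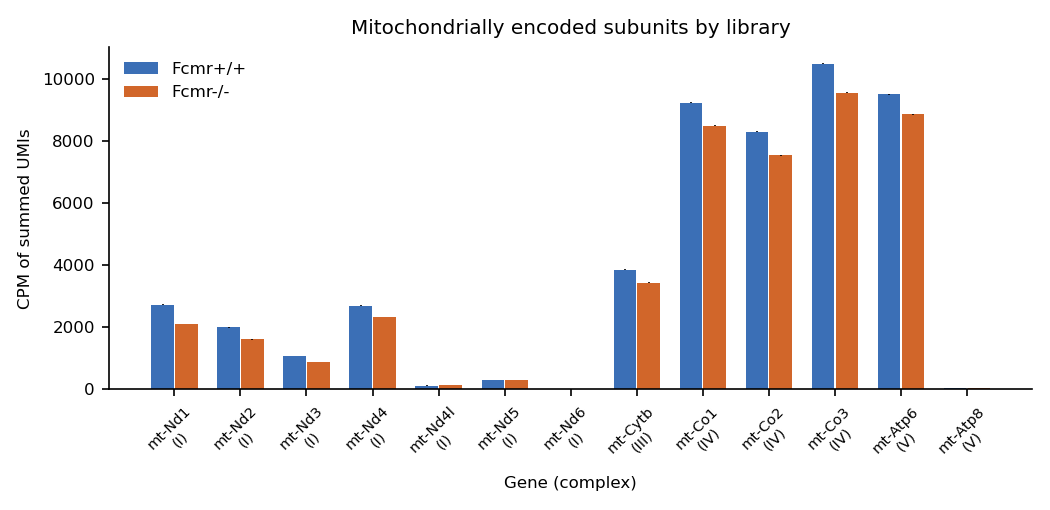
CPM of the 13 mitochondrially encoded genes in each library, with the complex in brackets and exact 95% Poisson intervals (counting error only) as black lines, most too short to see. The Fcmr-/- bar is lower for 10 of the 13 genes, and mt-Nd4l, mt-Nd6 and mt-Atp8, which are higher, are near the axis on this scale.

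The mitochondrial ratio was not the same in every state. Within states, the log2 ratio of the mitochondrial sum ran from -0.26 in state 4 to 0.04 in state 3, and was 0.00 in state 8, while that of the nuclear sum ran from -0.02 to 0.10. The mix of states differed between the libraries: states 3 and 9 were 95.8% and 95.2% Fcmr-/- cells. With the states weighted equally the mitochondrial log2 ratio was -0.11. The Fcmr-/- library was also shallower, and in both libraries shallower cells had a lower mitochondrial share, with medians of 4.04% and 3.29% in the 1588 and 2001 cells with the fewest UMIs and 4.94% and 4.55% in the 1588 and 2000 with the most. Among cells with 6000 to 12000 UMIs the log2 ratio was -0.24. The same 13 genes are all those with an mt- symbol in the files, so they are also the share on which cells were limited.

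To ask how the subunits varied among cell states, the cells of both libraries were clustered together, which gave 11 states. Of the member genes, Cox4i2, Cox6a2, mt-Nd6 and Ndufa4l2 took part in the clustering. Since the states were made from these cells, what follows is a description. Each state was compared with the other cells of the same library, for the 10 states with at least 50 cells in each.

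The summed nuclear subunits were lowest in state 7, state 8 and state 6. State 7 (255 Fcmr+/+ and 850 Fcmr-/- cells) was led by the interferon-induced genes Rsad2, Ifit1 and Ifit3. State 8 (569 and 449 cells) was led by hemoglobin and heat-shock genes and had the highest hypoxia genes, and state 6 (229 and 977 cells) was led by Cxcl3, Spp1 and Mmp8. Hypoxia genes, which include Vegfa, Slc2a1 and Adm, were high in all 3, at 3184 to 5065 CPM, where the libraries as wholes had 1533 and 1605 CPM. They were also high in state 11, led by Adm and Cdkn1c, at 2594 and 2747 CPM. Its log2 ratios to the other cells were -0.09 and -0.10 for the nuclear sum and -0.12 and 0.004 for the mitochondrial sum. In state 7 the nuclear subunits summed to 18172 and 18651 CPM in the Fcmr+/+ and Fcmr-/- cells (log2 ratios to the other cells of -0.30 and -0.30) and the mitochondrial ones to 36236 and 32146 CPM (-0.48 and -0.53). In state 8 the nuclear sums were 19268 and 19344 CPM (-0.22 and -0.24) and the mitochondrial ones 37409 and 37488 CPM (-0.45 and -0.28). In state 6 they were 19083 and 20403 CPM (-0.23 and -0.17) and 39411 and 33481 CPM (-0.36 and -0.47).

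At the other end, the nuclear sum was 23574 and 24211 CPM in state 5, whose leading genes are those of mitosis (log2 ratios 0.10 and 0.11), and 23483 and 23832 CPM in state 2, led by Tfrc and Gas6 (0.11 and 0.07). T and NK markers were at 0.0922 and 64.6 CPM in state 5, and without the cells with lymphocyte or melanoma markers its mean nuclear ratio was 0.11. State 9, not among the 10 and led by Iigp1 and Cxcl9, was at 0.15 and 0.15. Interferon gamma genes, which include Cxcl9 and Gbp2, were there at 878.5 and 1191 CPM, where the libraries as wholes had 48.6 and 483.1 CPM. In state 3 they were at 564.7 and 704.4 CPM, and its nuclear ratios were 0.02 and 0.04. States with high interferon-induced genes thus lay at both ends of the order. Which state was highest changed with the clustering and the scaling. State 2 had the highest mitochondrial sum of the 10, at 58286 and 53450 CPM (0.29 and 0.26). In state 5 the mitochondrial log2 ratios were 0.11 and 0.17, and their mean ran from -0.003 to 1.02 over 9 alternatives. Nuclear and mitochondrial sums thus went the same way in states 7, 8 and 6 and in states 2, 5 and 9. Between these, the nuclear and mitochondrial ratios, as means of the libraries, had opposite signs in some states. They were 0.06 and -0.18 in state 4, 0.03 and -0.10 in state 3, and -0.11 and 0.04 in state 1. Over the 11 states the Pearson correlation of the log2 ratios was 0.85 in Fcmr+/+ and 0.79 in Fcmr-/- cells. Over single cells the shares of the nuclear and mitochondrial subunits were hardly related, with Pearson values of -0.13 and -0.04. States share a library and both sums share its total, so these values are descriptions.

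**Figure D4:**
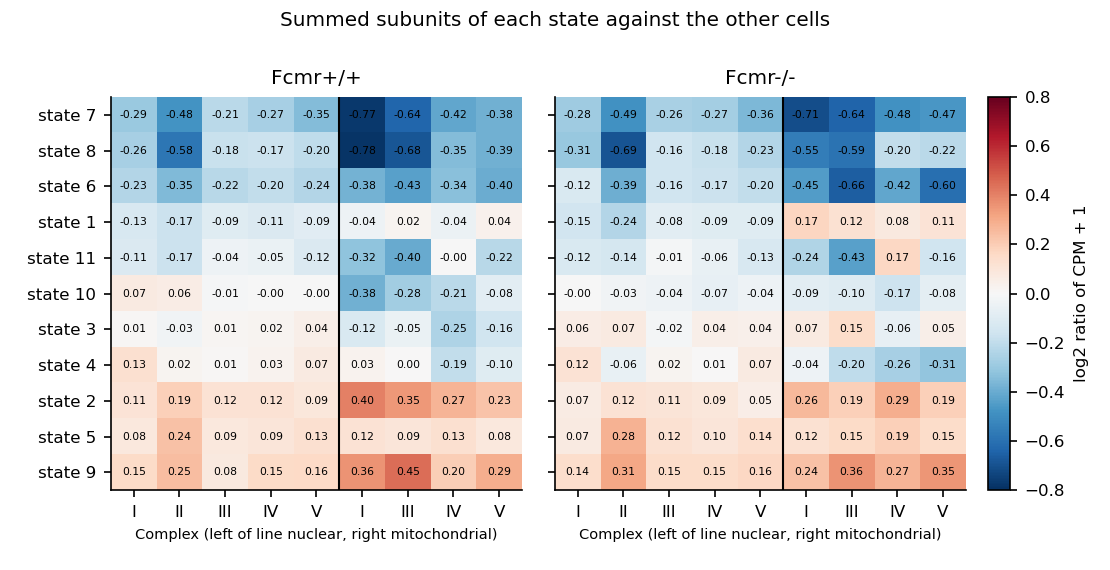
Log2 ratio of CPM + 1 of the summed subunits of each complex in each state against the other cells of the same library, Fcmr+/+ on the left and Fcmr-/- on the right, with nuclear complexes left and mitochondrially encoded ones right of the line and states ordered by the mean nuclear ratio. States 7, 8 and 6 are below 0 in every column in both libraries, with nuclear complex II the lowest nuclear column in each, and state 9 held 47 Fcmr+/+ cells.

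These low states also had low depth and lower levels of many genes, which limits what their CPM show. Median UMIs per cell were 9490 and 8468.5 in state 7, 10418 and 7515 in state 8, and 14118 and 10035 in state 6, against 28322 and 23990 in state 5. State 10, with nuclear log2 ratios of 0.020 and -0.037, had medians of 12557 and 9612.5 UMIs. Across the 11 states the nuclear log2 ratio rose with the log2 of the median UMI count, with Pearson values of 0.76 and 0.85. In state 8, 44 of 103 members were called lower in both libraries (42.7%), and 40.0% of all genes were, with a median log2 ratio of -0.32 for the nuclear subunits and -0.31 for all genes. In state 6 it was 24 of 103 (23.3%) against 22.8% of all, with medians of -0.20 and -0.17. Taken as a whole the members of both states were near the background, but in state 6 the parts were not alike. There the 24 were 10 of 77 nuclear subunits, 8 of 13 mitochondrial ones (median log2 ratio -0.39) and 6 of 13 assembly factors. In state 8 the nuclear and mitochondrial medians, -0.32 and -0.38, lay near the -0.31 of all genes. There the 44 were 29 of 77 nuclear subunits, 7 of 13 mitochondrial ones and 8 of 13 assembly factors (median -0.52). In state 7 it was 42 of 103 (40.8%) against 24.6%, made up of 29 of 77 nuclear subunits, 9 of 13 mitochondrial ones and 4 of 13 assembly factors, with medians of -0.31 for the nuclear subunits, -0.54 for the mitochondrial ones and -0.14 for all genes. Called higher were 2 of 103 members in state 7 (12.2% of all genes) and 3 of 103 in state 8 (8.56% of all). In state 5, 5 of 102 members were higher (4.90%, against 21.1%) and 2 lower (against 6.95% of all).

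Scaling by TMM or by the median ratio, which removes the shift of the typical gene, left the nuclear subunits of state 7 at mean log2 ratios of -0.21 and -0.20 and its mitochondrial subunits at -0.42 and -0.41. The nuclear sum of state 8 changed sign, to 0.01 and 0.03, that of state 6 was -0.05 and -0.04, and that of state 5 changed sign, to -0.04 and -0.04. The mitochondrial sums of states 8 and 6 stayed below 0, at -0.13 and -0.11 and at -0.27 and -0.26. Among cells with 6000 to 12000 UMIs alone, the nuclear and mitochondrial ratios of state 7 were -0.22 and -0.58, those of state 8 -0.12 and -0.36 and those of state 6 -0.14 and -0.33. Markers of other cells also moved with these states: endothelial markers were at 17.6 and 35.4 CPM in state 7 against 6.43 and 11.9 CPM in the libraries as wholes, and melanoma markers at 68.8 and 323.6 CPM in state 8, and their part in the result was not tested beyond leaving out cells with at least 2 lymphocyte or 2 melanoma markers, after which the nuclear ratios were -0.31 for state 7 and -0.24 for state 8. Macrophage markers summed to 7615 and 9221 CPM in state 7 and 7850 and 7927 CPM in state 8. The libraries as wholes had 12377 and 12384 CPM of them.

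The ratios differed between complexes. In state 7 the 4 subunits of complex II, which is both a respiratory complex and an enzyme of the TCA cycle, had log2 ratios for their sum of -0.48 and -0.49 in the Fcmr+/+ and Fcmr-/- cells, against -0.29 and -0.28 for complex I, -0.21 and -0.26 for complex III, -0.27 and -0.27 for complex IV and -0.35 and -0.36 for complex V. Complex II was also the lowest of the nuclear sums in state 8, at -0.58 and -0.69, and in state 6, at -0.35 and -0.39, and the highest in state 5, at 0.24 and 0.28. Its iron-sulfur subunit Sdhb was at 104.7 and 92.1 CPM in state 8 against 176.9 and 181.6 CPM in state 5, and its flavin subunit Sdha at 64.6 and 82.7 CPM in state 7 against 140.4 and 142.2 CPM in state 5. Within complex I, the 7 nuclear-encoded core subunits had median log2 ratios of -0.41 in state 7 and -0.46 in state 8, and the 29 accessory ones -0.30 and -0.35. Transcript length went with these values: over 76 nuclear subunits the Spearman correlation of the log2 ratio with the length of the longest annotated transcript was -0.38 in state 7, -0.33 in state 8 and -0.30 in state 6, and 0.22 in state 5. Genes are not independent replicates, and the part of length in the differences was not tested.

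Among mitochondrially encoded genes, complex I and mt-Cytb had lower ratios than complexes IV and V in states 7 and 8. In state 7 the complex I sum had log2 ratios of -0.77 and -0.71 and mt-Cytb of -0.64 and -0.64. Complex IV was at -0.42 and -0.48 and complex V at -0.38 and -0.47. In state 8 the complex I sum was at -0.78 and -0.55 and mt-Cytb at -0.68 and -0.59. Complex IV was there at -0.35 and -0.20 and complex V at -0.39 and -0.22. The lowest single gene was mt-Nd3, at 538.6 and 492.4 CPM in state 7, where the other cells of those libraries had 1080 and 910.7 CPM, and at 514.9 and 498.1 CPM in state 8. By contrast mt-Co1 was at 7738 and 6636 CPM in state 7, with log2 ratios of -0.26 and -0.38. In state 6 mt-Cytb was lowest, at -0.43 and -0.66, and complex IV highest, at -0.34 and -0.42. Complex V, at -0.40 and -0.60, was there lower than complex I, at -0.38 and -0.45.

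Among nuclear subunits with at least 20 CPM in either library, which leaves out Cox4i2 and Ndufa4l2, those with the widest range over the 10 states, counting for each gene the library with the narrower range, were Ndufa4, Sdhb, Ndufs7, Atp5a1 and Cox7a1. Ndufa4 ran from 237.6 CPM in state 8 to 541.8 CPM in state 2 in Fcmr+/+ cells, and from 248.4 CPM in state 7 to 541.3 CPM in state 2 in Fcmr-/- cells. Sdhb ran from 104.7 CPM in state 8 to 205.4 CPM in state 10, and from 92.1 CPM in state 8 to 200.6 CPM in state 3. Ndufs7, an iron-sulfur core subunit of complex I, ran from 75.1 to 149.9 CPM and from 74.3 to 144.5 CPM, lowest in state 8 in both libraries. Atp5a1, the alpha subunit of the F1 part of the ATP synthase, ran from 248.3 to 465.6 CPM and from 228.5 to 457.3 CPM, also lowest in state 8. Cox7a1 went the other way, and was highest in state 6 in Fcmr+/+ cells (23.2 CPM) and in state 7 in Fcmr-/- cells (30.4 CPM).

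The makeup of subunits with tissue or hypoxia isoforms differed across these states. Ndufa4l2 is a relative of Ndufa4 known to be induced through HIF-1, and Cox4i2 is the isoform of subunit 4 known from lung and hypoxia. Both genes, and Cox6a2, took part in the clustering. Of the UMIs of Ndufa4 and Ndufa4l2 together, Ndufa4l2 made up 3.48% (exact binomial interval 2.31 to 5.02) and 3.51% (2.79 to 4.34) in state 7 in Fcmr+/+ and Fcmr-/- cells, 4.28% (3.38 to 5.34) and 3.31% (2.31 to 4.57) in state 8, and 1.77% (1.10 to 2.69) and 1.54% (1.18 to 1.98) in state 6. In state 2 it was 0.0449% (0.0194 to 0.0884) and 0.122% (0.0446 to 0.264). Ndufa4l2 was thus highest where Ndufa4 was lowest, and its intervals in the 3 low states lay above those of state 2 in both libraries. The share counts Ndufa4 as well, so it also rises where Ndufa4 falls. In state 11 the share was 1.58% (1.18 to 2.06) in Fcmr+/+ cells, from 53 UMIs in 9 cells, and 0.267% (0.0550 to 0.777) in Fcmr-/- cells. These intervals treat UMIs as independent and do not cover UMIs that share a cell. In state 6, 21 Fcmr+/+ UMIs came from 6 cells, and in state 2, 6 Fcmr-/- UMIs came from 2 cells. Over all states the RNA of Ndufa4l2 came from few cells: 247 UMIs from 78 of 6352 Fcmr+/+ cells and 292 UMIs from 111 of 7999 Fcmr-/- cells, with up to 17 UMIs in a cell. States 7 and 8 held 32.1% and 31.5% of these cells but 12.97% and 16.2% of the libraries. The cells with Ndufa4l2 had hypoxia genes at 2572 and 2450 CPM against 1520 and 1592 CPM in cells without it, at median depths of 15735 and 13267 UMIs against 17997.5 and 12910.

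Cox4i2 made up 0.579% and 0.679% of subunit 4 UMIs in the Fcmr+/+ and Fcmr-/- libraries, 1.69% (1.24 to 2.24) and 2.26% (1.93 to 2.64) in state 7, 1.52% (1.24 to 1.85) and 0.984% (0.690 to 1.36) in state 8, and 0.254% (0.204 to 0.311) and 0.153% (0.0854 to 0.252) in state 2. It was called higher than in the other cells in both libraries in states 7 and 8, and in state 6 its log2 ratios went opposite ways, 0.55 and -0.42. Cox7a1 made up 3.35% (3.21 to 3.49) and 3.85% (3.71 to 4.002) of the UMIs of Cox7a1 and Cox7a2, from 2.44% and 2.77% in state 5 to 5.29% and 5.50% in state 6, and 4.71% and 6.20% in state 7. Cox6a2, the heart and muscle form of subunit 6a, made up 0.994% and 0.854% of its pair. In Fcmr+/+ cells it ran from 0.318% in state 6 to 2.19% in state 11, and in Fcmr-/- cells from 0.481% in state 7 to 1.36% in state 2. The testis form Cox6b2 gave 0.348% and 0.293%. Of the 3 genes for the same c subunit of the ATP synthase, Atp5g2 gave 42.2% and 40.4% of UMIs, Atp5g1 33.1% and 34.3%, and Atp5g3 24.7% and 25.2%. In state 8 the share of Atp5g2 was 48.0% and 49.9% and that of Atp5g3 19.3% and 20.7%.

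**Figure D5:**
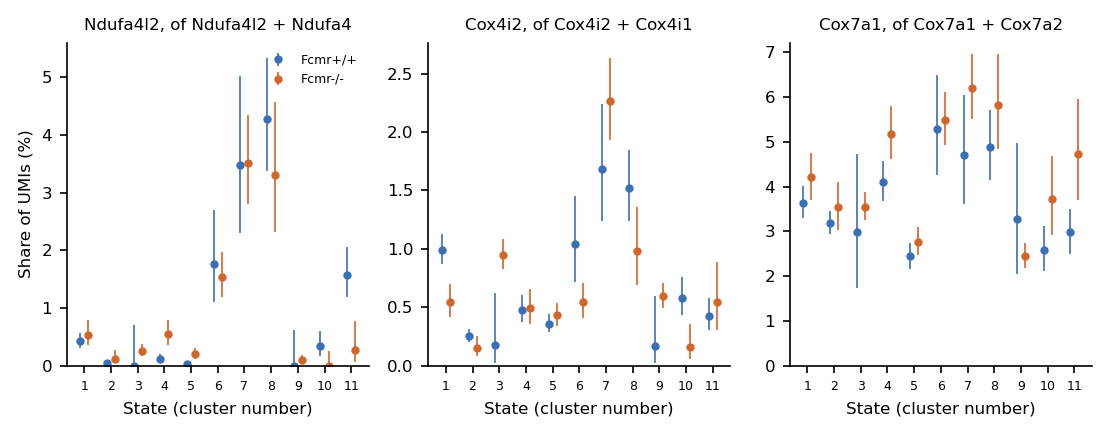
Share of UMIs of the minor isoform among those of both isoforms, in percent, for each state (horizontal axis) and library (blue Fcmr+/+, orange Fcmr-/-), with exact 95% binomial intervals for counting error. The shares of Ndufa4l2 and Cox4i2 are highest in states 7 and 8, and that of Cox7a1 is 4.71% or above in both libraries in states 6, 7 and 8 and also, in Fcmr-/- cells alone, in states 4 and 11.

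Other genes of mitochondrial metabolism and of glycolysis were then set beside the subunits. Between the libraries, none of 17 TCA cycle genes and none of 76 mitochondrial ribosomal protein genes were called higher or lower, where 535 of 8701 genes were higher and 608 lower. The lists had median log2 ratios of -0.03 and 0.05. Idh2, the mitochondrial NADP-dependent isocitrate dehydrogenase, was the lowest of the TCA genes, at 97.3 and 80.7 CPM (log2 ratio -0.27), and Suclg1 of succinyl-CoA ligase the highest, at 79.6 and 86.4 CPM (0.12). Of 8 genes for electron carriers and their partners none differed by that fold, and Cycs, which encodes cytochrome c, was at 223.0 and 264.6 CPM (0.25). Of 16 complex IV assembly genes 2 were higher, among them Pet100, at 79.8 and 102.5 CPM (0.36). Of 5 genes of mitochondrial gene expression 1 was higher, Lrpprc, which stabilises mitochondrial messages, at 16.4 and 20.8 CPM (0.32). None of 8 regulators passed that fold, and Hif1a was at 112.6 and 134.1 CPM (0.25). Of 14 glycolysis genes 3 were higher, with Pgk1 the most, at 20.6 and 33.4 CPM (0.67). The 14 genes summed to 9716 and 9898 CPM. Among genes with at least 20 CPM, the lowest ratio in the glycolysis list was that of Pgam1, at 1068 and 1002 CPM (-0.09). The lowest of the carriers was Etfb (-0.06), of the assembly genes Sco2 (0.01), of the expression genes Slirp (0.14) and of the regulators Nrf1 (-0.11).

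In the low states, the medians of the TCA cycle and mitochondrial ribosome lists were below 0, as those of the subunits were, and the median of the glycolysis list was above 0. In state 7, 12 of 17 TCA genes were called lower in both libraries, with a median log2 ratio of -0.50, as were 36 of 76 mitochondrial ribosomal protein genes (-0.41), 4 of 8 electron carrier genes (-0.40) and 4 of 8 genes for ATP export, phosphate carriage and uncoupling (-0.37). Of 14 glycolysis genes 12 were higher and none lower (0.69), while 12.2% of all genes were higher and 24.6% lower. In state 8, 11 of 17 TCA genes (-0.48) and 34 of 76 mitochondrial ribosomal protein genes (-0.37) were lower, while 40.0% of all genes were, with a median of -0.31. There 14 of 14 glycolysis genes were higher (0.83), while 8.56% of all genes were. In state 6, 8 of 17 TCA genes (median -0.32) and 24 of 76 mitochondrial ribosomal protein genes (-0.32) were lower, where 22.8% of all genes were, with a median of -0.17, and the glycolysis genes had a median of 0.71. Idh2 had log2 ratios of -1.08 and -1.16 in state 7. In state 5, 7 of 17 TCA genes were higher, where 21.1% of all genes were, and 9 of 14 glycolysis genes were lower, where 6.95% of all were, with medians of 0.28 and -0.39. Slc2a1, a glucose transporter, is in both the glycolysis and the hypoxia list.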

How the data were processed

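MerTk+ CD64+ cells from B16 tumors were profiled in 1 Fcmr+/+ and 1 Fcmr-/- droplet library. The authors deposited a matrix of raw UMI counts per gene and cell for each library, made with Cell Ranger on GRCm38 with no normalization, and the submitters' processing notes name Seurat 2.1.0. Strand and overlap settings of the counting were not given in the sources used here. Gene positions are from GENCODE M21 (GRCm38).

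Cells with 200 to 7000 genes and at most 30% mitochondrial UMIs were kept (6352 and 7999, from 6392 and 8017 barcodes). No doublet caller was run. Counts were summed over cells to CPM, with 1 CPM added before taking log2. Genes with at least 5 CPM in either of the cell groups compared were used, and a gene was called at a 1.25-fold difference, for states in both libraries and the same direction. Intervals (95%) were exact Poisson intervals for CPM and exact binomial intervals for shares, and cover counting error only. No test between genotypes was possible with 1 library for each.

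Cells were clustered in Seurat 5.3.0 (R 4.3.3) on log-normalised counts (scale 10000), with 1339 variable genes (mean 0.0125 to 3, dispersion above 0.5), 10 principal components, 30 neighbours and resolution 0.8. States are referred to by number and leading genes. TMM scaling used edgeR 4.0.16, and other steps Python 3.11.15, numpy 2.4.6, scipy 1.17.1 and pandas 2.3.3. The log2 ratio and the 1.25-fold call between libraries were tested on simulated library sums, and the other steps were not.

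Members, gene lists and alternatives were chosen with earlier results of these data known, the alternatives on UMI depth, on the scaling of states and on cells with other markers in the states after the state values had been seen. Nuclear subunits were named by rule: in each complex the most abundant gene and those with the largest ratio in each direction, all mitochondrially encoded genes, the isoform genes, those past the fold and the 5 with the widest range over states. In each further list, the genes with the highest and lowest ratio among those with at least 20 CPM could be named, and not all of them were. Subunits named from the state ratios or as members past the fold in all states were chosen after their values were seen. Alternatives changed the scaling, the limits on cells, the weighting of cells and clusters, the fold, the UMI depth and the clustering.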

Additional observations from a re-analysis of the deposited data

Results flagged for a closer look

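In 8 sums of subunits, the ratio of a state to the other cells of its library went opposite ways in the Fcmr+/+ and Fcmr-/- libraries with both 95% counting intervals off 0 (sums whose interval reached 0 in either library are not counted), and in each case the difference was not tested, since there was 1 library for each genotype. The nuclear subunits of state 10, led by Acp5 and Apoe, had log2 ratios of 0.020 in Fcmr+/+ and -0.037 in Fcmr-/- cells. The other 7 were mitochondrially encoded.

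In state 1, led by Ccl17 and Cd209a, the mitochondrial sum had log2 ratios of -0.023 and 0.10, its complex I genes -0.042 and 0.17 and its complex IV genes -0.044 and 0.081. In state 3, led by Ly6c2 and Gbp4, complex I genes were at -0.12 and 0.075, mt-Cytb at -0.054 and 0.15 and complex V genes at -0.16 and 0.048. State 3 held 65 Fcmr+/+ and 1484 Fcmr-/- cells. In state 4, led by Csf3 and Ppbp, complex I genes were at 0.025 and -0.039. States 1 and 4 held 1329 and 773 Fcmr+/+ cells and 838 and 688 Fcmr-/- cells. These ratios also depend on the other cells, so opposite signs do not give the direction between libraries within a state. The mitochondrial sum of state 1 was 49690 CPM in Fcmr+/+ and 48364 CPM in Fcmr-/- cells. In state 3, complex I genes were at 8207 and 7709 CPM, mt-Cytb at 3715 and 3729 and complex V genes at 8551 and 9141. In state 4, complex I genes were at 9071 and 7214 CPM.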

How the results depend on the processing

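The log2 ratio of the nuclear subunits between libraries (0.03) kept its sign in 14 of 14 alternatives. It was 0.043 with TMM scaling, 0.022 over UMIs outside mitochondrial and ribosomal protein genes, 0.020 as a mean over cells, 0.019 in cells thinned to 5000 UMIs, 0.038 with at most 5000 genes per cell, 0.023 without cells with lymphocyte or melanoma markers, 0.071 in cells with 6000 to 12000 UMIs and 0.027 with clusters weighted equally. That of the mitochondrial subunits (-0.15) kept its sign in 14 of 14 as well, at -0.14, -0.16, -0.19, -0.19, -0.16, -0.18, -0.24 and -0.11 in that order, -0.15 with at most 10% mitochondrial UMIs, -0.15 with no limits on cells and -0.16 without the dividing clusters.

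The complex with the largest ratio changed. It was complex V at 0.045, at 0.055 with TMM and at 0.053 with at most 5000 genes. It was complex II at -0.045 outside mitochondrial and ribosomal protein genes, -0.063 as a mean over cells, -0.066 thinned, -0.047 without cells with other markers and -0.055 with clusters weighted equally, and complex I at 0.10 in the UMI window. In that window 6 members were called higher and 5 lower (Atp5sl, Cox4i2, Cox7a2l, Sdhaf1 and mt-Nd1). With clusters weighted equally 1 was lower, Sdhaf1, and at 1.5-fold 0 were higher and 0 lower. The share of all genes past the fold was not computed in these settings, so these counts have no background beside them. Over the alternatives Atp5k ran from 0.46 to 0.59, Ndufa3 from 0.34 to 0.42, Cox7a1 from 0.28 to 0.46, Sdhaf1 from -0.62 to -0.35 and mt-Nd1 from -0.41 to -0.31.

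The lowest nuclear ratio of a state (-0.30, state 7) was -0.35 outside mitochondrial and ribosomal protein genes, -0.22 in the UMI window, -0.21 with TMM and -0.20 by median ratio, each for state 7. With member genes left out of the clustering it was -0.28, in a cluster holding 176 of the 1105 cells of state 7, and the cluster with 868 of them was at -0.28. The highest (0.11, state 5) was 0.13 at resolution 1.2 and 0.12 with member genes left out, both in other clusters, 0.14 thinned, 0.11 outside mitochondrial and ribosomal protein genes, 0.11 without cells with other markers, 0.14 in the UMI window (state 10), and 0.18 with TMM and 0.19 by median ratio (state 4). The causes were not tested.

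Depth limits the minor isoforms, and intervals hold no spread between mice. The UMI window, the TMM and median-ratio scaling of states and the states without cells with other markers were chosen after seeing the data. No paired analysis was possible because each genotype had 1 library.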
